A study of Mus musculus with 6 samples.

Results

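Endothelin and natriuretic peptide genes were followed in kidneys of C57BL/6 mice, as the 8 genes Edn1, Ece1, Ednra, Ednrb, Npr1, Npr2, Npr3 and Corin. They were chosen by name as an endothelin ligand, its converting enzyme and receptors, the natriuretic peptide receptors and corin. All 8 were among the 24346 gene symbols of the deposited table. The series concerns renal congestion, and whole-kidney messenger RNA was sequenced from 3 libraries after the operation labelled IVCC and 3 after sham surgery. The labels spell out neither IVCC nor the time after surgery, the age or the sex of the mice. Whether each library came from its own mouse is not stated, so the p-values describe the variation among the 6 libraries, which may be technical.

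Endothelins are short peptides cut from a long precursor, and the last cut is made by the endothelin-converting enzyme that Ece1 encodes. The receptor encoded by Ednra makes vascular smooth muscle and mesangial cells contract. The receptor encoded by Ednrb is found on endothelium and collecting duct, releases nitric oxide, clears endothelin from blood and promotes sodium excretion. Natriuretic peptides come largely from the heart and act on guanylyl cyclase receptors, Npr1 for the atrial and B-type peptides and Npr2 for the C-type peptide, which make cyclic GMP. Npr3 encodes the clearance receptor, which lacks a guanylyl cyclase domain and removes the peptides, and Corin encodes the protease that activates the atrial peptide.

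The 3 endothelin genes differ in the stretch of coding sequence for the mature peptide, shown here because only 2 of them had reads in these kidneys. Each stretch has 63 bases in 21 codons, read 5′ to 3′ from GENCODE M21 transcripts (GRCm38), and capitals mark the 4 cysteine codons.
Edn1: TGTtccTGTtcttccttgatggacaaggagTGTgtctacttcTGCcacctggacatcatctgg
Edn2: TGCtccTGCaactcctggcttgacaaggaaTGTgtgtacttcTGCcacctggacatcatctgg
Edn3: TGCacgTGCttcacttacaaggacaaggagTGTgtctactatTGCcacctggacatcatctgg
Edn1 and Edn2 share 53 of the 63 bases (84.1%), Edn1 and Edn3 share 50 (79.4%), and Edn2 and Edn3 share 48 (76.2%).

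Levels were measured as FPKM, by its name fragments per kilobase of transcript relative to mapped fragments. The scaling between libraries is not given. FPKM is a scale per length, so levels can be set beside each other between genes. Ece1 was the highest of the 8 genes, at 12.3 to 19.4 FPKM over the 6 libraries. Npr2 (5.92 to 8.03 FPKM) and Npr1 (3.68 to 7.66 FPKM) came next. Npr2 was above Npr1 in 4 of 6 libraries, so this pair did not differ beyond its spread. Npr1 was above Ednrb (4.16 to 4.75 FPKM) in 5 of 6 libraries, and Ednrb was above Npr3 (1.54 to 3.43 FPKM) in 6 of 6. Ednra (0.284 to 0.702 FPKM) and Edn1 (0.076 to 0.847 FPKM) were not separated, with Ednra above Edn1 in only 2 of 6 libraries. Corin was the lowest in each library, at 0.027 to 0.284 FPKM. Kidney identity was plain from the tubular genes, since Kap, an androgen-regulated proximal tubule gene, took 11 to 16.6% of each library's summed FPKM. Of the 5 adrenal cortex markers, Cyp11b1, Cyp11b2 and Cyp11a1 were listed at 0 in all 6 libraries, Cyp21a1 was above 0 in 2 IVCC libraries (0.07 and 0.063 FPKM), and Star was at 0.627 to 1.198 FPKM.

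**Figure D1:**
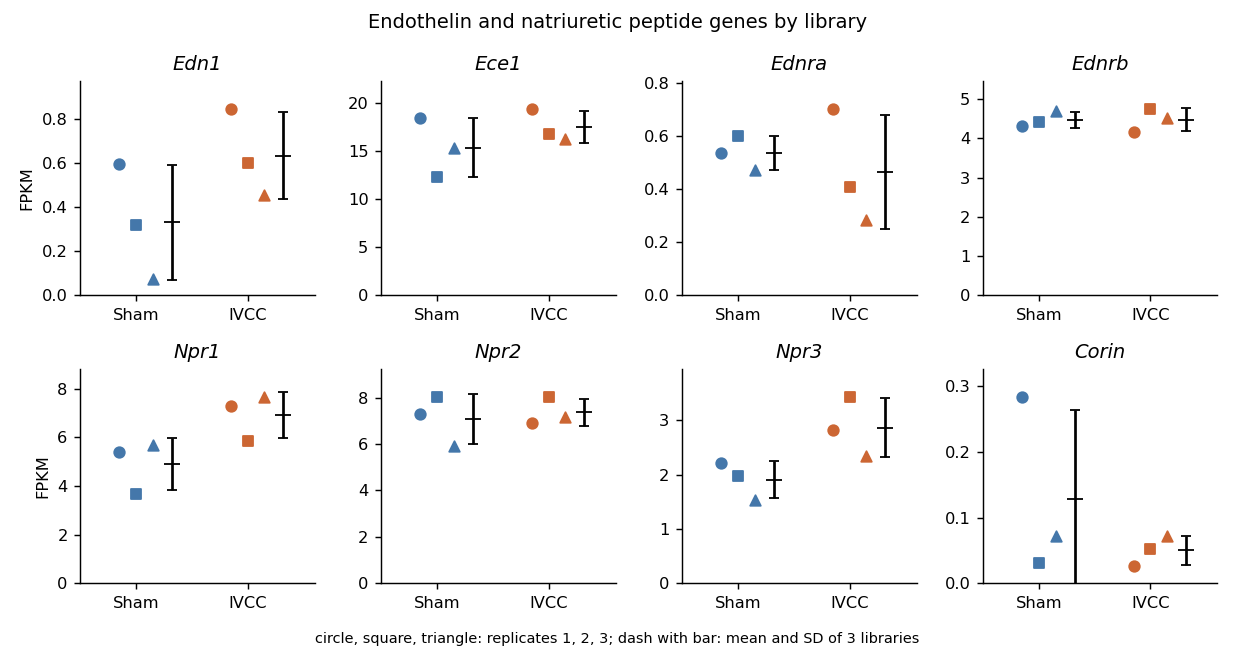
FPKM of each of the 8 genes (y axes from 0) in the 3 Sham (blue) and 3 IVCC (orange) libraries, with symbols for replicate numbers and a dash with bar for the mean and SD. The IVCC libraries lie above the Sham libraries for Npr1 and Npr3, and the groups overlap for the other 6 genes.

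FPKM do not carry read totals, so the reads behind the low values were estimated from the steps between the lowest values of each library. The nominal sizes of the Sham libraries were 6040000 to 7230000 reads and those of the IVCC libraries 8030000 to 8990000, so depth moved with the group; its part in the results was not tested. Of the values used, 81.1 to 85.7% per library fell within 0.1 of a whole number of reads. Each nominal size was the one with the highest such share among the sizes tried, so the share is not a separate check of it. On that scale Npr3 rested on 20.7 to 63.8 nominal reads per library, Edn1 on 0.9 to 13.2 and Corin on 1 to 8.7. The test was limma on log2(FPKM + 1) for the 12090 genes whose mean reached 1 FPKM. Ece1, Ednrb, Npr1, Npr2 and Npr3 were among them, while Edn1, Ednra and Corin fell below and are given by their values.

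No gene of the 12090 tested passed limma's Benjamini-Hochberg adjusted threshold of 0.05 (background 0%), so none of the 5 tested genes did. At an unadjusted p under 0.05 limma gave 431 genes (3.56%), 205 higher (1.7%) and 226 lower (1.87%) in IVCC. Npr1 and Npr3 were 2 of the 205. Among all tested genes the groups did not overlap for 8.31%: 4.09% had every IVCC library above every Sham library, and 4.22% had every one below. Of the 5 tested genes, Npr1 and Npr3 lay wholly above and none wholly below. The genes were picked with earlier results of these data known, so their share is a description.

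Edn1 encodes endothelin-1, the main endothelin of blood vessels and collecting duct (ENSMUSG00000021367.8, GRCm38 chr13:42301476-42307990, plus strand, 5 exons). It was at 0.847, 0.601 and 0.456 FPKM in the IVCC libraries and at 0.597, 0.322 and 0.076 FPKM in the Sham libraries. The highest value was in IVCC and the lowest in Sham, but Sham replicate 1 lay above IVCC replicate 3, so the groups overlapped. The means were 0.635 ± 0.198 and 0.332 ± 0.261 FPKM (SD, n = 3 each), a ratio of 1.91. An exact two-sided permutation test gave p = 0.2, where 3 against 3 libraries cannot go below 0.1. The value of 0.076 FPKM stands for 0.9 nominal reads, so the size of the difference was poorly fixed at this depth. On the log2(FPKM + 1) scale the difference was 0.31, and it was 0.16 without Sham replicate 3.

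Edn3, a second endothelin ligand that acts mainly on the receptor encoded by Ednrb, was at 1.79, 1.90 and 1.72 FPKM in the IVCC libraries and 1.43, 1.54 and 1.29 FPKM in the Sham libraries. Every IVCC library was above every Sham library, as for 4.09% of all tested genes. These values stand for 24.7 to 27.2 nominal reads in the IVCC libraries and 13.4 to 19.2 in the Sham libraries. The log2 fold change was 0.21 with a standard error of 0.13 (limma adjusted p = 0.924). Edn2 was listed at 0 FPKM in all 6 libraries.

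Ece1 (ENSMUSG00000057530.14, chr4:137862237-137965229, plus strand, 20 exons) was at 19.4, 16.8 and 16.3 FPKM in the IVCC libraries and at 18.5, 12.3 and 15.3 FPKM in the Sham libraries. The first Sham library was above 2 of the IVCC libraries, and the groups overlapped. The log2 fold change was 0.19 with a 95% interval of -0.18 to 0.56 (limma adjusted p = 0.924), and it was 0.05 without Sham replicate 2. The related converting enzyme gene Ece2 was at 9.06, 6.17 and 8.93 FPKM in the IVCC libraries and at 10.6, 6.21 and 13.8 FPKM in the Sham libraries. Its gene model overlaps another protein-coding model, Gm49333, on the same strand, so these reads may not be all its own.

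Ednra (ENSMUSG00000031616.7, chr8:77663031-77724464, minus strand, 8 exons) was at 0.702, 0.408 and 0.284 FPKM in the IVCC libraries and at 0.536, 0.601 and 0.472 FPKM in the Sham libraries. The IVCC group held both the highest and the lowest library, so its spread enclosed that of Sham. The means were 0.465 ± 0.215 and 0.536 ± 0.0645 FPKM (SD, n = 3 each), and an exact two-sided permutation test gave p = 0.6.

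Ednrb (ENSMUSG00000022122.15, chr14:103814625-103844402, minus strand, 8 exons) was the steadiest of the 8 genes, with a coefficient of variation of 5.15% over the 6 libraries. It was at 4.16, 4.75 and 4.53 FPKM in the IVCC libraries and at 4.31, 4.41 and 4.71 FPKM in the Sham libraries. The libraries of both groups were interleaved. Its log2 fold change was 0.0008 with a 95% interval of -0.26 to 0.27 (limma adjusted p = 0.998). Ednra rested on only 8.7 to 19.3 nominal reads per library, with the fewest in IVCC replicate 3. Within a library, Ednrb was 5.93 to 16.0 times as high as Ednra, the most in IVCC replicate 3. The log2 of that ratio averaged 3.37 ± 0.730 in IVCC and 3.07 ± 0.227 in Sham (SD, n = 3 each), with an exact permutation p of 0.6, or 0.75 adjusted over the 5 ratios compared.

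Npr1, the receptor gene for the atrial and B-type peptides (ENSMUSG00000027931.12, chr3:90450591-90465866, minus strand, 22 exons), was at 7.29, 5.87 and 7.66 FPKM in IVCC. In Sham it was at 5.40, 3.68 and 5.67 FPKM. The second library was the lowest in both groups, and the lowest IVCC value was just above the highest Sham value. The means were 6.94 ± 0.945 and 4.92 ± 1.08 FPKM (SD, n = 3 each), a ratio of 1.41. This was 0.43 on the log2 scale, with a standard error of 0.17 and a 95% interval of 0.03 to 0.84. Its unadjusted limma p was 0.0376, rank 326 of the genes tested, and the adjusted p was 0.924. Without Sham replicate 2 the log2 fold change was 0.27. The unadjusted p was 0.05 or more under 7 of 17 alternatives, up to 0.112 without Sham replicate 2, among them no filter (0.0509), a filter at 5 FPKM (0.0538) and quantile normalization (0.0878).

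Npr2 (ENSMUSG00000028469.15, chr4:43631935-43651244, plus strand, 22 exons) was at 6.93, 8.02 and 7.16 FPKM in the IVCC libraries and at 7.28, 8.03 and 5.92 FPKM in the Sham libraries. The lowest library and the highest were both Sham libraries. Its log2 fold change was 0.06 with a 95% interval of -0.26 to 0.37 (limma adjusted p = 0.947), and it was -0.05 without Sham replicate 3. Within a library, the log2 ratio of Npr2 to Npr1 was -0.07, 0.45 and -0.10 in IVCC and 0.43, 1.13 and 0.06 in Sham. The exact permutation p of that ratio was 0.3, or 0.5 adjusted over the 5 ratios.

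Npr3, the clearance receptor gene (ENSMUSG00000022206.7, chr15:11839896-11907287, minus strand, 9 exons), was at 2.83, 3.43 and 2.34 FPKM in the IVCC libraries and at 2.22, 1.98 and 1.54 FPKM in the Sham libraries. Replicate 3 was the lowest in both groups, and the groups were separated by the step from 2.22 to 2.34 FPKM. The means were 2.87 ± 0.544 and 1.91 ± 0.346 FPKM (SD, n = 3 each), a ratio of 1.501. This was 0.41 on the log2 scale, with a standard error of 0.16 and a 95% interval of 0.03 to 0.79. The unadjusted limma p was 0.0397, rank 343, and the adjusted p was 0.924. The unadjusted p was 0.05 or more under 6 of 16 alternatives, up to 0.136 without IVCC replicate 2, among them scaling to TPM (0.0726) and quantile normalization (0.0516). Within a library the log2 ratio of Npr3 to Npr1 averaged -1.28 ± 0.472 in IVCC and -1.35 ± 0.499 in Sham (SD, n = 3 each; exact permutation p = 0.8). The clearance receptor was thus at 0.271 to 0.584 times the level of Npr1, and that ratio overlapped between the groups.

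**Figure D2:**
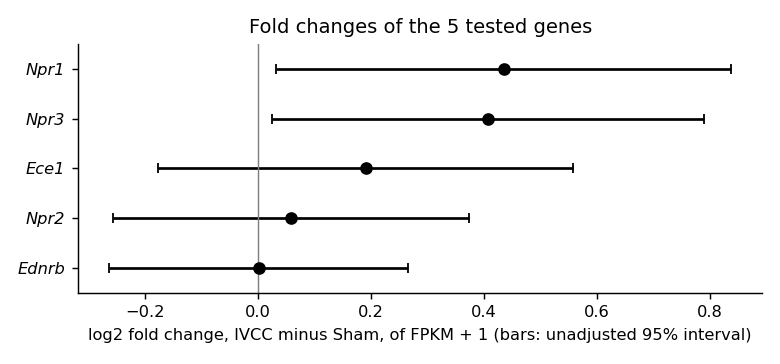
Log2 fold change of IVCC over Sham on the log2(FPKM + 1) scale for the 5 tested genes, with bars for the unadjusted 95% interval from limma. The intervals of Npr1 and Npr3 lie above 0 and those of Ece1, Npr2 and Ednrb hold 0, and none of the 5 genes passed the adjustment over all genes.

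The promoters of Npr1 and Npr3 are shown because these were the 2 genes whose groups did not overlap. Each run is the 250 bases before the RefSeq start site (GRCm38.p6), 5′ to 3′ on the minus strand, with matches to searched motifs in capitals. The RefSeq start of Npr1 is also the GENCODE start of its gene model. That of Npr3 lies 84 bases before the GENCODE start, so the bases just after it lie outside the GENCODE gene model. Its place rests on RefSeq alone. The motifs searched on either strand were the TATA box TATAAA, the CCAAT box, the GC box GGGCGG and the AP-1 motif TGANTCA.
Npr1, chr3:90465867-90466116: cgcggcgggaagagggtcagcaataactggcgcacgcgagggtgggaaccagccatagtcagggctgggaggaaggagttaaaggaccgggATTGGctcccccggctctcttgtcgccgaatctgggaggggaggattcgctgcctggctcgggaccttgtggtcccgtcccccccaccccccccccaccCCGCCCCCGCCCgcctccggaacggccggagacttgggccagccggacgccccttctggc
Npr3, chr15:11907372-11907621: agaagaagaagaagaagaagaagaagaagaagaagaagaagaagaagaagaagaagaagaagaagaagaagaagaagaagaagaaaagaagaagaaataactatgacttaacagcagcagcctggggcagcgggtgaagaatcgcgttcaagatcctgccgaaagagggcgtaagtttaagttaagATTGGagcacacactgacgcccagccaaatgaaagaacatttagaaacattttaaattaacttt
The Npr1 stretch has 70.4% G and C, against 38.8% for Npr3 and a median of 52.4% over 32851 promoter stretches of the same length. Both hold CCAAT on the opposite strand, as 33.8% of all stretches do on either strand. Npr1 also holds GGGCGG on the opposite strand in 2 places that adjoin, a motif in 32.7% of all stretches. TATAAA is in 12.4% of all stretches and TGANTCA in 6.7%, and neither is in these windows. A match is a description of the letters and not a bound site.

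Corin (ENSMUSG00000005220.10, chr5:72300025-72504473, minus strand, 22 exons) was at 0.027, 0.052 and 0.072 FPKM in the IVCC libraries and at 0.284, 0.031 and 0.072 FPKM in the Sham libraries. Sham replicate 1 stood at 8.7 nominal reads and the other 5 libraries at 1 to 2.9. The Sham mean of 0.129 ± 0.136 FPKM (SD, n = 3) therefore rested on 1 library, and an exact two-sided permutation test gave p = 0.5. The log2 difference on the log2(FPKM + 1) scale was -0.10, and it was -0.0015 without Sham replicate 1.

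Of the natriuretic peptide genes themselves, Nppb and Nppc were listed at 0 FPKM in all 6 libraries. Nppa, the atrial peptide gene, was at 0.388, 0.376 and 0.174 FPKM in the IVCC libraries and at 0, 0.222 and 0 FPKM in the Sham libraries, which stands for 0 to 2.1 nominal reads. It is named after its values were seen, and its groups overlapped. The heart muscle markers Myh6, Tnnt2, Tnni3 and Actc1 summed to 0.8 to 1.1 FPKM in the IVCC libraries and 0.2 to 2.2 FPKM in the Sham libraries.

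Among the other genes that process, degrade or answer natriuretic peptides, 9 of 17 were tested, with 4 higher and 5 lower fitted values. Their median log2 fold change was -0.04, against -0.01 over all genes. One gene had an unadjusted limma p under 0.05 in each direction, against 1.7% higher and 1.87% lower over all tested genes. Without overlap, 2 lay wholly higher and 3 wholly lower, against 4.09% and 4.22% of all tested genes. Meprins are brush-border proteases of the proximal tubule that cleave natriuretic peptides among other substrates, and the groups did not overlap for either meprin gene. Mep1b was at 68.6, 74.0 and 94.3 FPKM in the IVCC libraries and at 116.6, 161.3 and 148.6 FPKM in the Sham libraries. All 3 IVCC libraries were below all 3 Sham libraries. Its log2 fold change was -0.84 with a standard error of 0.17 (limma adjusted p = 0.905), and its unadjusted limma p was 0.00152. Mep1a was at 710.2, 717.0 and 714.3 FPKM in the IVCC libraries and at 817.4, 887.2 and 927.9 FPKM in the Sham libraries, again with no overlap, at a log2 fold change of -0.30 (limma adjusted p = 0.924), or -0.06 after quantile normalization. Mme, which encodes neprilysin, a protease that degrades both natriuretic peptides and endothelins, overlapped between the groups. It averaged 21.8 ± 3.77 FPKM in the IVCC libraries and 23.3 ± 2.01 FPKM in the Sham libraries (SD, n = 3 each).

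Furin, a proprotein convertase that cuts the endothelin precursor and the B-type peptide precursor, was at 58.2, 60.7 and 59.8 FPKM in IVCC. In Sham it was at 50.3, 51.4 and 53.9 FPKM, with no overlap and a log2 fold change of 0.20 (limma adjusted p = 0.924). The cyclic GMP phosphodiesterase genes went both ways. Pde2a was at 6.37, 7.85 and 7.39 FPKM in the IVCC libraries and at 6.35, 5.41 and 5.10 FPKM in the Sham libraries, separated by a step of 6.35 to 6.37. Its log2 fold change was 0.31 with a standard error of 0.13 (limma adjusted p = 0.924), and its unadjusted limma p was 0.0455. The gene model of Pde2a overlaps another protein-coding model, Gm45837, on the same strand, so these reads may not be all its own. Pde9a, named after its values were seen, was at 25.3, 23.0 and 25.4 FPKM in the IVCC libraries and at 29.3, 25.5 and 31.3 FPKM in the Sham libraries. All 3 IVCC values of Pde9a were lower, at a log2 fold change of -0.21 (limma adjusted p = 0.924), or -0.04 after scaling to TPM.

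**Figure D3:**
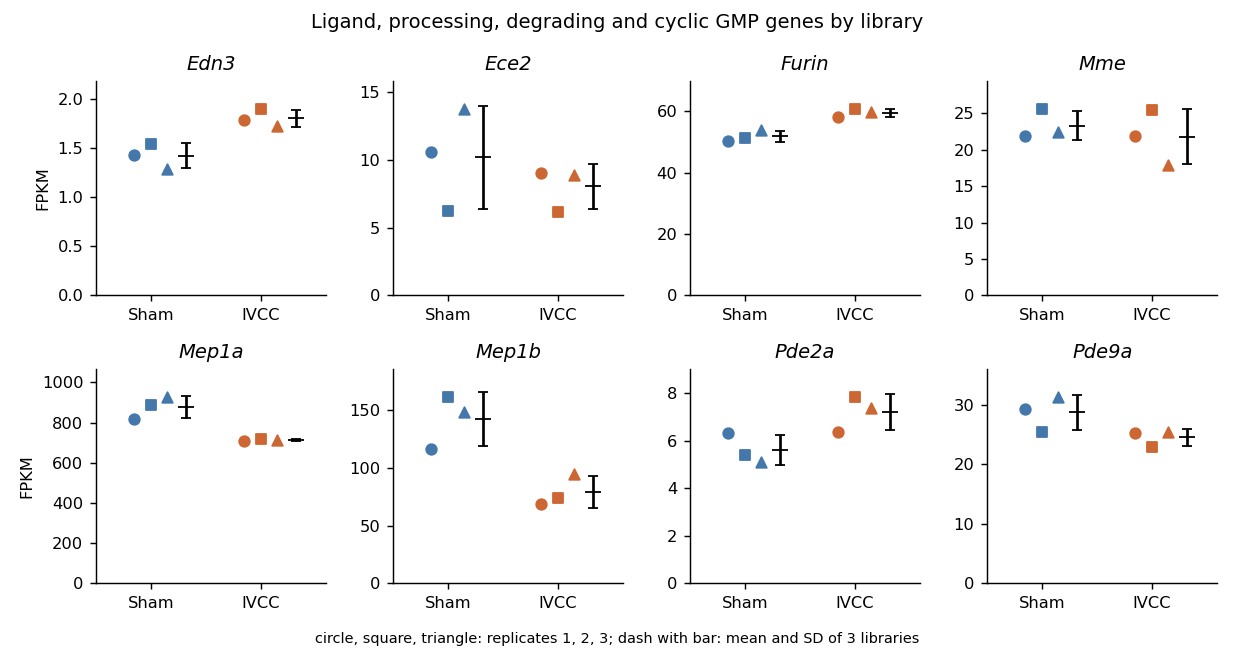
FPKM (y axes from 0) of 8 genes for endothelin and natriuretic peptide supply, breakdown and cyclic GMP in 3 Sham (blue) and 3 IVCC (orange) libraries, with mean and SD. Edn3, Furin and Pde2a lie higher and Mep1a, Mep1b and Pde9a lower in IVCC without overlap, while Ece2 and Mme overlap. The genes shown were chosen partly by p or after their values were seen, so they do not stand for the pathway. Of the 9 tested genes of the natriuretic peptide list, 2 lay wholly higher and 3 wholly lower, against 4.09% and 4.22% of all tested genes.

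Of the other endothelin genes 3 of 5 were tested, Edn3 higher and Ece2 and Mme lower, with a median log2 fold change of -0.10. The list of G proteins, phospholipases, calcium channels and other signalling genes that act behind endothelin receptors had 15 of 19 genes tested. Of these 12 had higher and 3 lower fitted values, where 48.4% of all tested genes had a higher one, and the groups overlapped for each tested gene. The median log2 fold change was 0.20, against -0.01 over all genes. Leaving out Sham replicate 3 gave 0.06, leaving out IVCC replicate 2 gave 0.07 and leaving out IVCC replicate 3 gave 0.34. Scaling to TPM gave 0.36, a scaling that also raised the median of all genes to 0.147. In the reported fit, 1.7% of all tested genes were higher at an unadjusted limma p under 0.05. Of this list Gna12, a G protein alpha subunit, was the only such gene, at a limma p of 0.0472 (adjusted p = 0.924). It was at 28.7, 32.7 and 17.6 FPKM in the IVCC libraries and at 15.7, 19.8 and 17.0 FPKM in the Sham libraries. The inositol trisphosphate receptor gene Itpr1 averaged 30.0 ± 8.18 and 25.8 ± 5.64 FPKM, and Gna11 averaged 26.7 ± 2.67 and 27.1 ± 3.07 FPKM in IVCC and Sham (SD, n = 3 each).

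Of the nitric oxide and soluble guanylyl cyclase genes 5 of 8 were tested, with 4 higher and 1 lower fitted value and a median log2 fold change of 0.05. None had an unadjusted limma p under 0.05, and the groups overlapped for each. Ddah1 and Ddah2, which break down inhibitors of nitric oxide synthase, averaged 118.2 ± 1.996 and 12.7 ± 2.09 FPKM in IVCC. In Sham they averaged 121.7 ± 10.5 and 11.4 ± 2.65 FPKM (SD, n = 3 each). Gucy1a3, a subunit of soluble guanylyl cyclase, was at 3.17, 5.25 and 3.63 FPKM in the IVCC libraries and at 3.03, 3.56 and 2.84 FPKM in the Sham libraries. Guca2b encodes uroguanylin, a peptide that promotes salt excretion, and was at 730.6, 618.3 and 1096 FPKM in the IVCC libraries and 956.7, 1030 and 1421 FPKM in the Sham libraries. The groups overlapped, at a log2 fold change of -0.50 (limma adjusted p = 0.924). It was -0.32 without IVCC replicate 2, -0.33 without Sham replicate 3, -0.32 with scaling to TPM and -0.26 after quantile normalization. Guca2a, the guanylin gene, averaged 10.6 ± 2.57 FPKM in the IVCC libraries and 8.04 ± 2.38 FPKM in the Sham libraries (SD, n = 3 each).

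The summed markers of 4 cell types were, like Npr1 and Npr3, higher in every IVCC library than in every Sham library, although no single marker passed the adjusted threshold. In whole kidney, more cells of a type and more RNA per cell cannot be told apart. Over all tested genes, 48.4% of fitted values were higher in IVCC. At an unadjusted limma p under 0.05, 1.7% of all tested genes were higher and 1.87% lower. The 10 blood endothelial markers summed to 220.4 to 247.3 FPKM in the IVCC libraries and 195.5 to 217.3 FPKM in the Sham libraries. Of their fitted values 10 of 10 were higher, 2 of them at an unadjusted limma p under 0.05. The 8 podocyte markers summed to 64.2 to 109.7 FPKM in the IVCC libraries and 52.6 to 56 FPKM in the Sham libraries, with 7 of 7 tested higher and 6 of them under 0.05. The 6 interstitial fibroblast markers summed to 37.1 to 42.8 and 31.9 to 35.3 FPKM, with 4 of 5 tested higher and those 4 under 0.05. Dcn, the highest of them, averaged lower in IVCC, at 18.2 FPKM against 20.0 FPKM in Sham. The 6 macrophage markers summed to 59.2 to 73.3 and 52.9 to 57 FPKM, with 5 of 6 higher, 2 of them under 0.05, and 1 lower under 0.05. The sum for mesangium, pericytes and smooth muscle overlapped, at 41.6 to 66.9 FPKM in the IVCC libraries and 57.5 to 71.5 FPKM in the Sham libraries, with 4 of 9 higher and 5 lower. The sums for proximal tubule and for collecting duct principal cells overlapped too, with 5 of 6 and 2 of 6 fitted values higher. As a percent of the podocyte sum in the same library, Npr3 was at 3.16, 3.13 and 3.65% in IVCC and at 3.99, 3.53 and 2.92% in Sham, so the groups overlapped on that scale. As a percent of the endothelial sum, Npr1 was at 3.26, 2.66 and 3.10% in IVCC and at 2.49, 1.88 and 2.88% in Sham, which also overlapped. The means in IVCC and Sham were 3.31 and 3.48% for Npr3 (exact permutation p = 0.7). For Npr1 they were 3.01 and 2.42% (exact permutation p = 0.2, where 0.1 is the smallest possible), so Npr1 averaged higher in IVCC on that scale. With the sums swapped, Npr1 averaged lower in IVCC, at 8.48 and 9.02% of the podocyte sum (exact permutation p = 0.8). Npr3 then averaged higher, at 1.26 and 0.938% of the endothelial sum (exact permutation p = 0.3). The groups overlapped for both, and for each gene the direction depended on the sum chosen. The part of these cell types in the values of Npr1 and Npr3 was not tested.

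**Figure D4:**
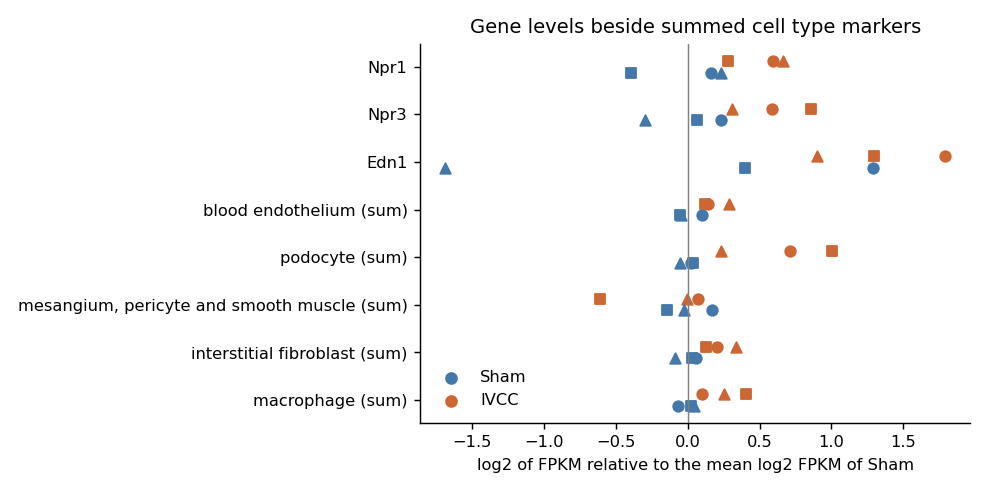
Log2 FPKM of Npr1, Npr3 and Edn1 and of summed marker genes of 5 cell types in each library, relative to the mean log2 FPKM of Sham (0), with Sham in blue, IVCC in orange and symbols for replicate numbers. The podocyte, endothelial, fibroblast and macrophage sums of the 3 IVCC libraries lie above those of the 3 Sham libraries, as Npr1 and Npr3 do.

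Genes with the closest pattern over the 6 libraries were sought among 8171 named genes averaging 5 FPKM or more, by Pearson correlation of log2(FPKM + 1). The libraries are the same for each gene, and with 6 libraries high values are common, so these are descriptions. For Npr3 they were Nacc1 (r = 0.997), Igtp (r = 0.995) and Stard8 (r = 0.991), and 204 genes had r above 0.9. For Npr1 they included Pmepa1 (r = 0.984) and Sparc (r = 0.983), with 43 genes above 0.9. Ece1 lay closest to Tubb5 (r = 0.993), Ganab and Arhgef18 (r = 0.974 each). Npr2 lay closest to Zc3h4 (r = 0.995), Tsnax (r = 0.99) and Mon2 (r = 0.989), and Ednrb to Tmtc4 (r = 0.966), Slc35a2 (r = 0.962) and Zdhhc9 (r = 0.957).

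Across 17 other settings the log2 fold change of Npr1 ran from 0.27 to 0.60, and across 16 that of Npr3 ran from 0.19 to 0.56, higher in IVCC in each. As the groups did not overlap for either gene, only the changes of scaling could have reversed that direction. The lowest value of Npr3 came with a pseudocount of 5, which damps low genes.

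**Figure D5:**
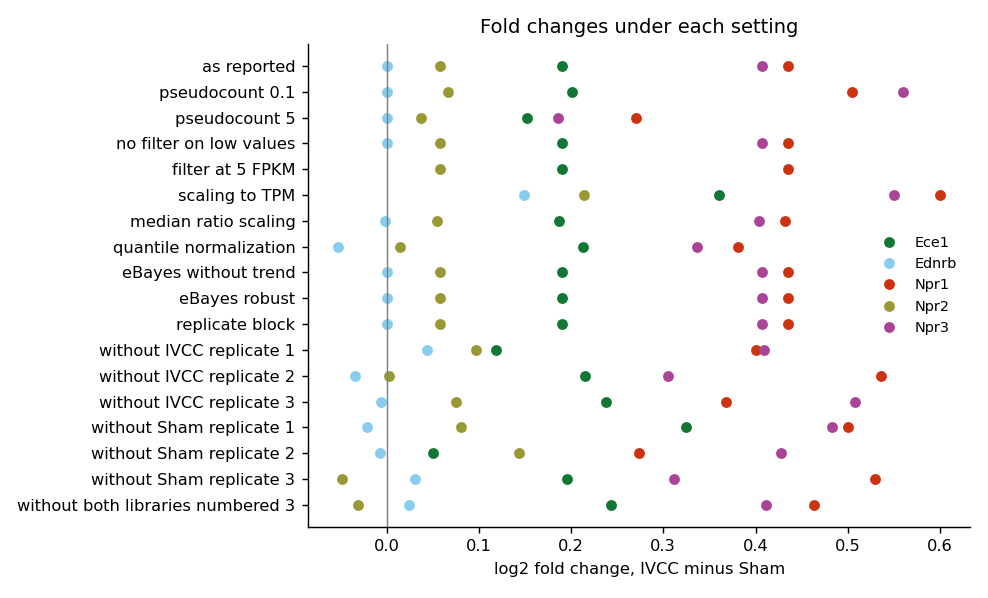
Log2 fold change of IVCC over Sham (x axis) for the 5 tested genes under the reported setting and each alternative (y axis), where Npr3 and Ednrb have no value with a filter at 5 FPKM. Npr1, Npr3 and Ece1 stay above 0 under each setting shown, and Ednrb and Npr2 lie near 0 and cross it under some. For Npr1 and Npr3, whose groups did not overlap, only the changes of scaling could have crossed 0.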

How the data were processed

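Per the labels' protocols, kidney RNA was made into stranded mRNA libraries and read in single 75 bp reads. The authors deposited FPKM, with 1 column for each library. The submitters' processing notes name Cufflinks 2.2.1, TopHat2 2.0.13, SAMtools 0.1.19, Bowtie2 2.2.3 and mm10. Which annotation, strand setting and scaling were used is not given in the sources used here. Gene models on the opposite strand overlap each of the 8 genes except Ednrb, so reads of both strands may be mixed there.

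Values were transformed to log2(FPKM + 1), which understates the folds of low genes. Genes averaging 1 FPKM or more over the 6 libraries were compared two-sided in limma 3.58.1 (R 4.3.3; lmFit and eBayes, trend on), with Benjamini-Hochberg adjustment over all 12090 genes. This fit was tested on simulated data. Within-library ratios used exact permutation. Nominal reads assumed 200 bp fragments, using genes with 1 basic transcript of 1500 to 5000 bp and values below 0.1 FPKM. That restriction to 1 transcript was chosen after a first try on genes with any number of transcripts and values of 0.015 to 0.1 FPKM, where 60.2 to 64.5% of values per library were whole within 0.1 reads and the nominal sizes were 6120000 to 9120000 reads. Coordinates are from GENCODE M21 (GRCm38, the assembly that mm10 names), promoters from RefSeq.

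The members and gene lists were chosen with earlier results of these data known. Besides the members, named genes were pathway genes with an unadjusted p under 0.05, up to 3 per list with the highest mean FPKM, and the 3 genes closest in pattern to each tested member, of which 1 is not reported here. Alternatives covered pseudocounts, filters, scalings, eBayes options, the replicate number as a block and left-out libraries. Ratios to summed markers and the exact tests of Edn1, Ednra and Corin were added after the data were seen, as was the choice to apply the filter to the kept libraries when 1 was left out.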

Additional observations from a re-analysis of the deposited data

How the results depend on the processing

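Limits first: 3 libraries per group, no read counts, and few nominal reads for Edn1, Ednra and Corin. Npr1, Npr3 and Ece1 were higher in IVCC under each alternative tried, with limma adjusted p-values of 0.107 or more for Npr1, 0.155 or more for Npr3 and 0.342 or more for Ece1. The groups did not overlap for Npr1 and Npr3, so left-out libraries and pseudocounts could not reverse their direction. Filters, eBayes options and the block did not change their fold changes. Only TPM, median ratio scaling and quantile normalization could have reversed them. Ednrb turned lower with median ratio scaling (-0.0022), quantile normalization (-0.0525) and left-out libraries (-0.0348 to 0.0436). Npr2 turned lower without both libraries numbered 3 (-0.0315) and ran from -0.0487 to 0.1432 as single libraries were left out. With a pseudocount of 0.1 the log2 differences were 0.9446 for Edn1, -0.235 for Ednra and -0.4606 for Corin. Among the ratios, leaving out 1 library moved Ednrb to Ednra from -0.0121 to 0.7022 and Npr3 to Npr1 from -0.1942 to 0.3014.

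Scaling to TPM moved the median log2 fold change of all genes to 0.147. Relative to that median Npr1 stood at 0.45 and Npr3 at 0.40, against 0.44 and 0.42 as reported. Genes at an unadjusted limma p under 0.05 were then 262 higher and 82 lower. Their number was 780 with no filter, 282 with a filter at 5 FPKM, 1057 without both libraries numbered 3, and 214 to 1039 without single libraries. Genes called were 0 to 4 without single libraries and 4 without both numbered 3, none of them one of the 8 genes.

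Mep1b (-0.98 to -0.67), Mep1a (-0.35 to -0.06), Pde9a (-0.29 to -0.04) and Guca2b (-0.73 to -0.26) were lower, and Edn3 (0.08 to 0.33), Furin (0.18 to 0.37), Pde2a (0.20 to 0.47) and Gna12 (0.35 to 0.78) higher, under each alternative run on them. For all of these but Guca2b and Gna12 the groups did not overlap, so only the changes of scaling could have reversed the direction. Mme turned higher with TPM (0.0659) and ran from -0.2197 to 0.0219 without single libraries. Gna11 turned higher with TPM (0.1562) and quantile normalization (0.0301) and ran from -0.101 to 0.0577. Ddah1 turned higher with TPM (0.1369), quantile normalization (0.0818) and without both libraries numbered 3 (0.0241), and ran from -0.079 to 0.0306. Ddah2 ran from -0.035 to 0.2821. The median of the endothelin receptor signalling list stayed above 0 under each of 17 alternatives (0.0577 to 0.3616). The medians of 3 other lists changed sign under some. For the other endothelin genes the median was 0.0659 with TPM, -0.0008 without both libraries numbered 3 and -0.1479 to 0.0219 without single libraries. For the natriuretic peptide genes it was 0.0955 with TPM, 0.0533 with no filter, 0.0868 without both libraries numbered 3 and -0.091 to 0.0351 without single libraries. For nitric oxide genes it was 0.1627 with TPM and -0.0166 to 0.1922 without single libraries. The cause of these shifts was not tested.

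With the replicate number as a block, 2388 genes had an unadjusted limma p under 0.05, against 431 in the reported fit. Deviations from the group means correlated by -0.107, 0.343 and 0.323 for replicates 1, 2 and 3. They correlated by -0.364 for IVCC replicate 3 with Sham replicate 2, and by -0.371 for IVCC replicate 2 with Sham replicate 3. The libraries numbered 1 correlated by -0.107 to 0.068 with those of the other group. Deviations from a group mean depend on each other, so these correlations cannot decide whether the numbers pair the libraries. The reported fit did not pair them. Whether replicates 2 and 3 shared a pairing or a batch was not tested. The block made no call among the 5 tested genes. With it the unadjusted limma p was 0.00325 for Npr1 (adjusted p = 0.107) and 0.0151 for Npr3 (adjusted p = 0.155).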
